A study of Mus musculus with 12 samples.

Results

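The nuclear genes for subunits of the mitochondrial respiratory chain and ATP synthase were examined in mouse lung tumors and normal mouse lung. Members were all rows of the expression table whose mouse gene symbol marks a subunit of complex I (Nduf followed by a, b, c, s or v and a number), complex II (Sdha, Sdhb, Sdhc and Sdhd), complex III (Uqcr), complex IV (Cox with a number from 4 to 8) or ATP synthase, also called complex V (Atp5). These names gave 91 of the 30399 rows. Of the 91, 82 are annotated as protein-coding and 9 are not. A gene was tested if its mean value over all libraries was at least 1, which 81 of the 82 protein-coding rows were. The exception was Cox8c, a testis form of complex IV subunit 8, with at most 1 read in any library. A further 6 symbols with matching names, Cox4i1, Cox6a2 and Ndufa13 among them, were not analysed here. Ndufa4 and its paralog Ndufa4l2 carry complex I names and were counted with complex IV, where the NDUFA4 protein sits, and Atp5s, known as coupling factor B, was counted with complex V.

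The study made lung cancer models by CRISPR/Cas9 mutagenesis without a virus, and poly-A selected RNA was sequenced from 5 normal lungs and 7 tumors. The labels give tissue only: no genotype, targeted gene, strain, age or treatment is stated for either group, nor whether the libraries of a group came from separate animals. Tumors 3 and 4 share the number 159 in their titles and tumors 5, 6 and 7 share 201, and the titles of tumors 1 and 7 hold the Spanish word for trachea. The p-values below therefore measure the spread between these libraries, part of which may be within an animal.

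The respiratory chain passes electrons from NADH through complex I, and from succinate through complex II, to ubiquinone, complex III, cytochrome c and finally complex IV, which reduces oxygen. Complexes I, III and IV pump protons across the inner mitochondrial membrane, and ATP synthase lets them return through a ring of c subunits that turns its catalytic head. Most subunits are encoded in the nucleus and the rest in mitochondrial DNA, and several complex IV subunits exist as paired genes, with a general form and a form typical of muscle, lung, testis or hypoxic cells.

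Normal lung libraries held 11126432 to 17032234 reads and tumor libraries 13093843 to 24217633. Values are normalized counts, reads per gene divided by a size factor per library and not by gene length, and 3 reads were worth at most 4.85 in normal lung and 3.57 in tumors. These floors cover counting error only. The labelled tissues were checked against marker genes: all 5 alveolar type 2 markers were lower in tumors, with a summed level of 146880 to 225441 in normal lung and 738 to 2652 in tumors, and all 5 neuroendocrine markers were higher, at 97.8 to 132 against 20814 to 102932. Tumor 7 stood apart. Its 9 cardiac muscle markers summed to 42455, against 516 to 4943 in normal lung and 596 to 3028 in the other tumors, and its brown fat marker Ucp1 was at 1221, against at most 29.6 elsewhere. Its 4 leukocyte markers summed to 5103, within the 3212 to 6441 of normal lung, against at most 1367 in the other tumors. Genes of the Y chromosome also differed between libraries, with a mean log2 level over 4 genes of 0 to 9.43 in normal lung and 0 to 9.14 in tumors, all 4 lower in the tumors.

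Most subunits were not called different between tumor and normal lung. In ATP synthase 10 of 18 rows rose (9 of 17 genes, since Atp5o has 2 rows), among them all those of the c ring and of the small membrane subunits. Of the 7 tissue-restricted or alternative forms of complex IV tested 4 fell, by the widest margin in Cox4i2. Of the 81 protein-coding members tested with limma, 23 were called higher in tumor and 6 lower (adjusted p under 0.05), and 52 were not called. Over all 23674 genes tested, 61.5% were called, 31.4% higher and 30.1% lower. The shares among the members were 35.8% called, 28.4% higher and 7.41% lower. The median log2 fold change, here and below tumor minus normal lung on the log2(value + 1) scale, was 0.23 over the members and 0.04 over all genes. It was positive in 57 members and negative in 24. Changes of at least 1 in size were called in 8 members, 6 higher and 2 lower, where 48.5% of all genes had a call of that size. Every tumor lay above every normal lung in 13 members, where 20.1% of all genes did, and below in 2, where 18.4% did.

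These counts moved with the libraries and the scaling. Normalized totals were 1.77e+07 to 1.90e+07 in normal lung and 1.52e+07 to 1.68e+07 in tumors. Scaling every library to the same total raised the median of all genes to 0.24 and gave 36 members higher and 3 lower (36.4% and 25.8% of all genes), so that the share of calls in the higher direction went from 79.3% to 92.3%. The difference between the members' median and that of all genes was 0.19 as deposited and 0.20 with equal totals. Without normal lung 1 there were 15 members higher and 6 lower (29.4% and 28.2% of all genes). Without normal lung 4 there were 23 higher and 3 lower (29% and 28% of all genes). With a covariate for the Y-linked level there were 10 higher and 6 lower (24.8% and 24.3% of all genes).

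**Figure D1:**
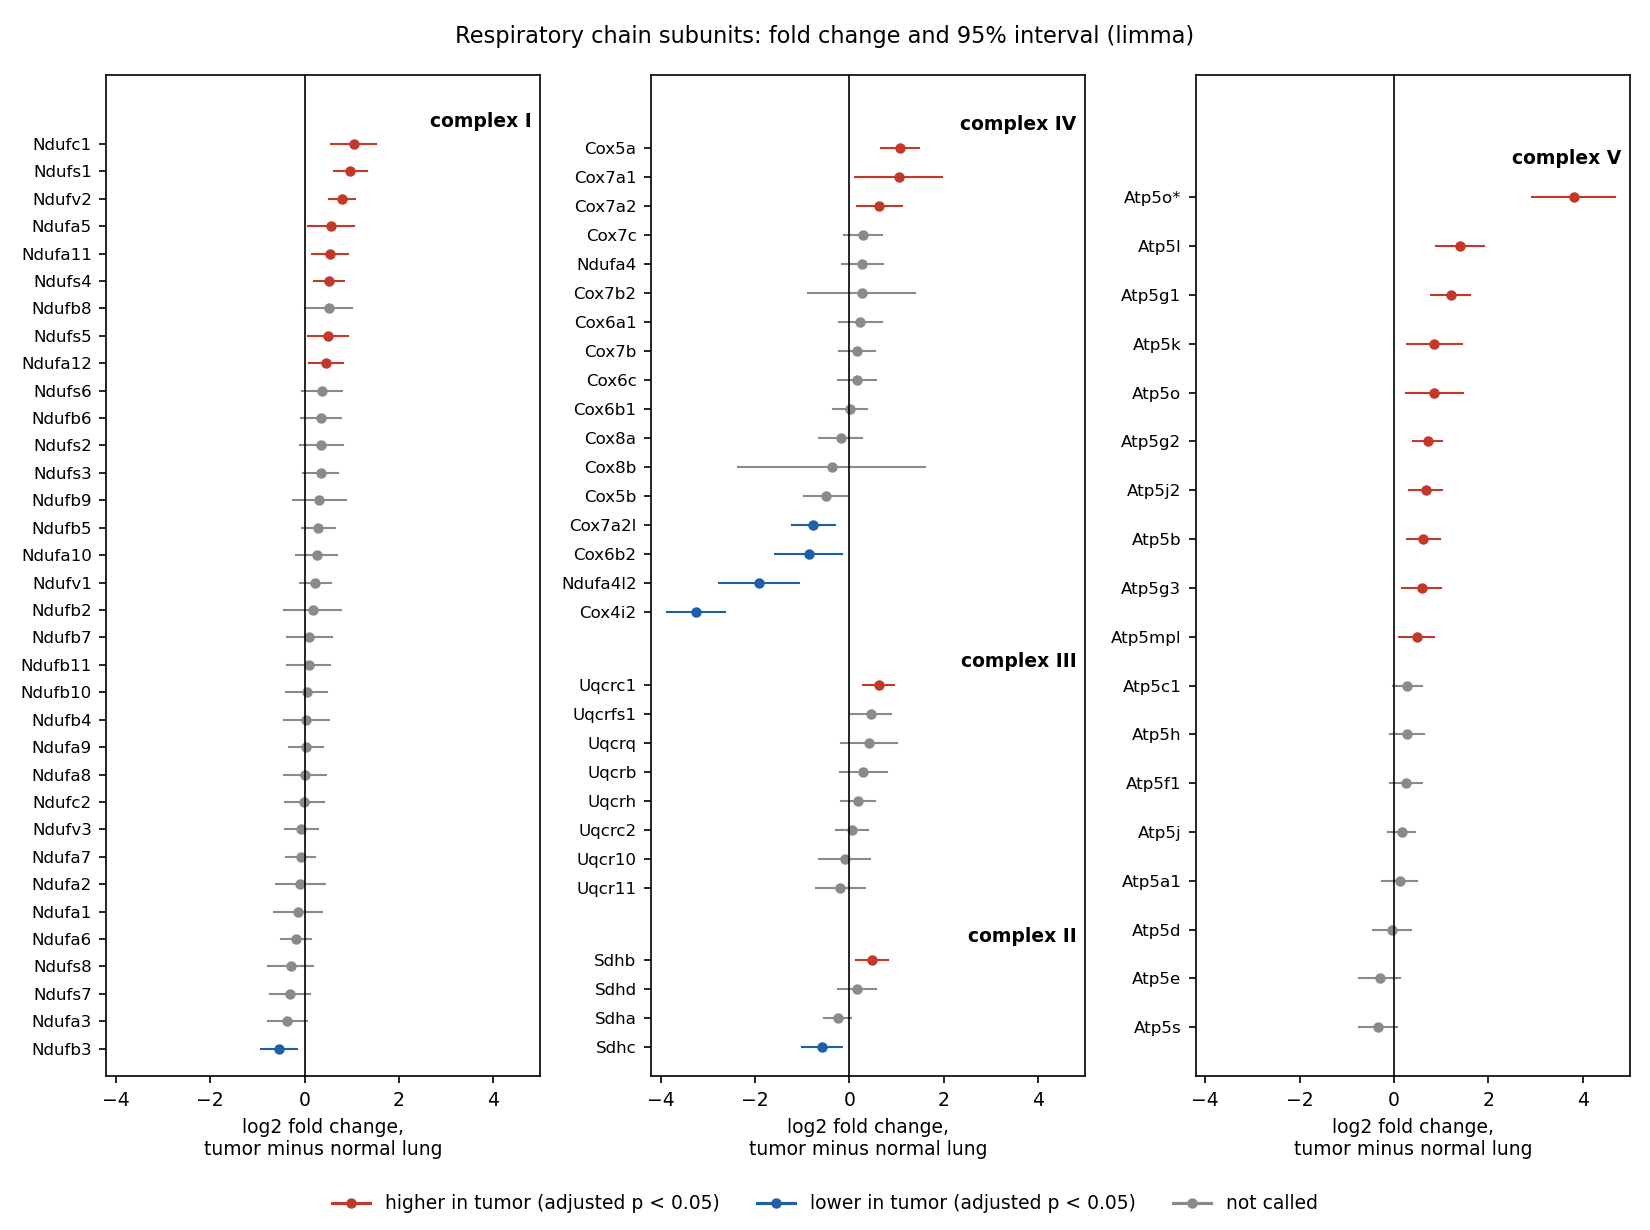
Log2 fold change (tumor minus normal lung, horizontal axis) of the 81 tested protein-coding members by complex, with 95% intervals from limma. Red marks genes higher and blue genes lower in tumor (adjusted p under 0.05), grey genes not called. Complex V holds 10 of the 23 higher rows (Atp5o as 2) and complex IV 4 of the 6 lower ones. Atp5o with an asterisk is the second identifier of that symbol, near 0 reads in normal lung.

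Many nuclear genes of the chain have a binding motif of the transcription factor NRF1, a regulator of mitochondrial genes, close to their start. Promoter windows of 300 bases, from 250 before to 50 after the annotated start, were taken from RefSeq (GRCm38.p6) and matched 67 of the 81 protein-coding member symbols. The motif GCGCA, any base, then GCGC, sought on both strands, was in 17 of the 67 (25.4%), beside 4.60% of all 32851 windows and 7.17% of 17492 protein-coding genes. Among matched members, 8 of the 20 called higher in tumor held it and 9 of the 47 others. The motif CCGGAAG, a core bound by ETS factors such as GABPA and not overlapping the first in its letters, was in 16 (23.9%), beside 8.86% of windows and 12.9% of protein-coding genes, and in 3 of the 20 and 13 of the 47. Median GC content was 57.3% in members and 56.3% in protein-coding genes. A match describes the letters only. Of members with the NRF1 motif, 5 are shown in the gene's own direction, because 4 of them (all except Sdha) were called higher in tumor and come from 2 complexes, while Sdha was not called and held 3 matches in its window. Capitals mark the motif. The first printed motif base lies 42 bases before the start in Atp5g2 (chr15:102671070-102671099, minus strand), 50 in Atp5k (chr5:108434430-108434459, minus strand), 60 in Ndufa11 (chr17:56717692-56717721, plus strand), 98 in Ndufs5 (chr4:123718265-123718294, minus strand) and 55 in Sdha (chr13:74350276-74350305, minus strand).
Atp5g2: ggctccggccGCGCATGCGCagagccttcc
Atp5k: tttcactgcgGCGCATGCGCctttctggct
Ndufa11: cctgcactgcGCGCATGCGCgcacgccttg
Ndufs5: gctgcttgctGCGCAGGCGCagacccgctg
Sdha: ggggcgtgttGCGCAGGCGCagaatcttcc

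Complex I oxidizes NADH. Of its 34 tested genes 8 were higher in tumor (23.5%, beside 31.4% of all genes), 1 was lower (2.94%, beside 30.1%) and 25 were not called. The median log2 fold change was 0.20. Among the 7 nuclear core subunits, which carry the flavin and the iron-sulfur clusters, 2 were higher, Ndufs1 and Ndufv2, and 5 were not called. Ndufs1, the largest subunit and a carrier of iron-sulfur clusters, had 250.2, 226, 215, 185 and 252 normalized counts across normal lungs 1 to 5 and 410.2, 633, 399, 462, 402, 425 and 393 across tumors 1 to 7. All tumors lay above all normal lungs, with tumor 2 the highest. Its log2 fold change was 0.97 (SE 0.17, adjusted p = 2.02e-04 in limma). Exons of Ndufs1 overlap Eef1b2 and Ino80dos on the opposite strand, and since use of the strand in counting is not stated its count is uncertain.

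Ndufv2, which binds an iron-sulfur cluster next to the flavin subunit, had 349, 320.4, 365, 391 and 386 in normal lungs 1 to 5, while the tumors ranged from 556 to 718 with a median of 612. The groups did not overlap, and the fold change was 0.80 (SE 0.13, adjusted p = 1.20e-04 in limma). Ndufv1, the flavin subunit that accepts electrons from NADH, overlapped between groups at 849.9 to 1179 in normal lung and 951 to 1458 in tumors, and was not called (0.23, adjusted p = 0.209 in limma).

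The other 27 complex I genes code for supernumerary subunits, which surround the core and are needed for its assembly and stability. Of these 6 were higher, 1 was lower and 20 were not called, with a median of 0.10. Ndufc1, a small membrane-arm subunit, had the largest change of the complex. It had 61.9, 48.4, 54.9, 63.5 and 47.1 across normal lungs 1 to 5 and 92.2 to 159.6 in tumors with a median of 114. No tumor reached down to the normal range, and the fold change was 1.04 (SE 0.22, adjusted p = 0.0012 in limma). The remaining higher genes were Ndufa12 (0.46), Ndufs5 (0.50), Ndufs4 (0.52), Ndufa11 (0.54) and Ndufa5 (0.56), and in Ndufs4 and Ndufa11 the groups did not overlap. Exons of Ndufa11 overlap Vmac on the opposite strand. The copy Ndufa11b, described below, may share reads with Ndufa11, so its count is uncertain. Ndufs4 is a late-assembling subunit whose loss is a mouse model of Leigh syndrome. Ndufb3, a membrane-arm subunit, was the 1 gene lower, with 295, 372, 391, 557 and 354 across normal lungs 1 to 5 and 229 to 305 in tumors with a median of 278. The groups overlapped slightly, and the fold change of -0.53 (SE 0.18, adjusted p = 0.0184 in limma) was not called without normal lung 4 (-0.40, adjusted p = 0.0574) or with equal totals (-0.33, adjusted p = 0.106).

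Complex II, succinate dehydrogenase, is the chain's link to the tricarboxylic acid cycle and is encoded in the nucleus alone. Its subunits are built as a catalytic pair, Sdha and Sdhb, on a membrane anchor, Sdhc and Sdhd. The 4 genes did not move together. Sdhb, the iron-sulfur subunit, had 517, 427, 588, 550.2 and 570.2 across normal lungs 1 to 5 and 511 to 888 in tumors with a median of 760.1. Tumor 3 was the only tumor inside the normal range. Its fold change was 0.48 (SE 0.16, adjusted p = 0.0188 in limma), not called without normal lung 2 (0.40, adjusted p = 0.0599) or with the Y-linked covariate (0.42, adjusted p = 0.129).

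Sdhc, the cytochrome b anchor subunit, had 1299, 1553, 1794, 2223 and 1453 in normal lungs and 774 to 1511 in tumors with a median of 1106. The groups overlapped through tumors 3 and 7. Its fold change was -0.58 (SE 0.20, adjusted p = 0.0214 in limma). That call was lost without normal lung 3 (adjusted p = 0.0505), without normal lung 4 (adjusted p = 0.0651) and with equal totals (-0.38, adjusted p = 0.0982). Sdha, the flavoprotein that oxidizes succinate, had 1934, 2272, 2116, 2271 and 2042 across normal lungs 1 to 5 and 1727, 1817, 1602, 1682, 1758, 1599.8 and 2532 across tumors 1 to 7. The first 6 tumors lay below every normal lung and tumor 7 above every one. Over all 7 tumors its fold change was -0.24 (SE 0.13, adjusted p = 0.127 in limma), and without tumor 7 it was -0.32 and called lower (adjusted p = 0.0136). Tumor 7 is the library with the high cardiac, brown fat and, among tumors, leukocyte markers, whose part in its Sdha level was not tested. Sdhd, the small anchor subunit, was not called (0.17, adjusted p = 0.445 in limma).

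Complex III passes electrons from ubiquinol to cytochrome c. Of its 8 tested genes 1 was higher (12.5%, beside 31.4% of all genes) and 7 were not called, with a median of 0.25. Uqcrc1, a core subunit facing the matrix, had 482, 438, 429.6, 539 and 567.9 across normal lungs 1 to 5 and 656 to 952 in tumors with a median of 705. The groups did not overlap, and the fold change was 0.62 (SE 0.15, adjusted p = 0.00267 in limma). Uqcrfs1, the Rieske iron-sulfur protein, had 1156 to 2013 in normal lung and 1510.1 to 2835 in tumors. It missed the threshold (0.46, SE 0.20, adjusted p = 0.0645 in limma), and was called without normal lung 4 (0.57, adjusted p = 0.033), without any one of tumors 1, 5 or 6, and with equal totals. None of the 5 small subunits was called, with fold changes from -0.19 (Uqcr11) to 0.42 (Uqcrq).

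Complex IV, cytochrome c oxidase, hands electrons to oxygen. Of its 17 tested genes 3 were higher (17.6%, beside 31.4% of all genes), 4 lower (23.5%, beside 30.1%) and 10 not called. Of the 10 general subunits 2 were higher, none lower and 8 not called (median 0.20). Of the 7 tested tissue-restricted or alternative ones 1 was higher, 4 were lower and 2 were not called (median -0.76). The difference between these sets was not tested. Cox5a, a general subunit of the matrix side, had 157, 153, 176, 182 and 185 across normal lungs 1 to 5 and 274 to 542 in tumors with a median of 359. The groups were well apart, with a fold change of 1.08 (SE 0.18, adjusted p = 2.14e-04 in limma). Cox5a overlaps Gm26631 on the opposite strand. Cox5b, its neighbour in the enzyme, had a fold change of -0.49 and was not called (adjusted p = 0.0615 in limma), and Cox6b1, Cox6a1, Cox6c, Cox7b, Cox7c, Cox8a and Ndufa4 were not called either.

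Cox4i2 had the largest change of all members in the downward direction. It codes for the form of subunit 4 that is abundant in lung and takes part in oxygen sensing. Its normalized counts were 765, 655, 685, 1034 and 943 across normal lungs 1 to 5 and 39.3, 89.3, 66.4, 145, 94.6, 113 and 77.5 across tumors 1 to 7. Every tumor lay far below every normal lung. The fold change was -3.25 (SE 0.28, adjusted p = 4.89e-07 in limma), a level 9.52-fold lower, and was -3.07 to -3.38 when each library was left out in turn. The general form, Cox4i1, was not analysed here, so the ratio of the 2 forms is not given.

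Ndufa4l2, a paralog of Ndufa4 known to be induced by hypoxia, had 321, 379.5, 338, 660.2 and 508 across normal lungs 1 to 5 and 29.1, 157, 139.8, 169.7, 104, 134 and 149 across tumors 1 to 7. The groups did not overlap, and tumor 1 lay well below the other tumors. Its fold change was -1.91 (SE 0.39, adjusted p = 9.17e-04 in limma), and -1.59 without tumor 1 (adjusted p = 6.67e-05). Exons of Ndufa4l2 overlap Shmt2 on the opposite strand.

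Cox4i2 and Ndufa4l2 are both known as genes of lung pericytes. Among 8 pericyte and smooth muscle markers 6 were lower in tumor and 1, Rgs5, was higher (3.59). Beside the marker counts of this paragraph, 30.1% of all genes tested were called lower and 31.4% higher. The summed level of the 8 markers was 8836 to 15281 in normal lung, 3283 to 10538 in tumors 1 to 6 and 16977 in tumor 7. Higd1b, a gene typical of lung pericytes, fell by 4.06 on the log2 scale, from 373 ± 126 (SD, n = 5) to 22.7 ± 10.7 (SD, n = 7), and no marker of the list was at 0 in any library. The endothelial markers were also lower, 4 of 4, at 48708 to 61400.2 in normal lung and 627 to 4134 in tumors. In whole-tissue RNA, fewer cells of a type and less RNA per cell cannot be told apart, and the part of cell makeup in these changes was not tested.

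Cox7a2l, known as the supercomplex factor SCAF1 because it joins complexes III and IV, had 742, 1033, 958, 1461 and 739 in normal lungs and 439 to 780.3 in tumors with a median of 529. Tumors 2 and 7 reached the 2 lowest normal lungs, and the fold change was -0.76 (SE 0.21, adjusted p = 0.00672 in limma). Cox7a2, the general form of the same subunit, went the other way, with 123, 169, 178, 216 and 189.7 in normal lungs and 201 to 431 in tumors, a fold change of 0.64 (SE 0.22, adjusted p = 0.022 in limma). The Cox7a2 call was lost without normal lung 1 (adjusted p = 0.0672) and with the Y-linked covariate (adjusted p = 0.124).

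Cox6b2, the testis form of subunit 6b, had 281, 175, 237, 251 and 291 across normal lungs 1 to 5 and 56.0 to 275 in tumors with a median of 149. Tumor 5 lay among the normal lungs. The fold change of -0.86 (SE 0.33, adjusted p = 0.0354 in limma) lost its call in 11 of the 24 alternatives run, the count tests among them (edgeR -0.67, adjusted p = 0.106). Of the male germ cell markers 3 of 3 tested were higher in tumor, where 31.4% of all genes were called higher. Their summed levels were 1.29 to 8.08 across normal lung and 11.4 to 40.5 across tumors. These levels are near the floor in normal lung, where each of the 3 was at 0 in some library. The part of germ cell genes in the level of Cox6b2 was not tested.

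The forms of complex IV typical of heart and skeletal muscle varied widely among the tumors. Cox8b had 87.7, 113, 207, 93.1 and 138 across normal lungs 1 to 5 and 5.06, 102, 129, 149, 69.6, 58.6 and 1314 across tumors 1 to 7. Tumor 7, with the high cardiac, brown fat and leukocyte markers, was far above all other libraries, and tumor 1 far below. Cox8b was not called (-0.37, SE 0.92, adjusted p = 0.742 in limma), and its sign depended on the libraries, with -1.005 without tumor 7 and 0.29 without tumor 1. Cox7a1 had 9.87 to 24.5 in normal lung and 19.6, 105, 20.8, 47.6, 29.1, 39.1 and 53.2 in tumors, highest in tumors 2 and 7. With each library left out in turn its fold change was 0.81 to 1.20. Tumor 2 had the highest sum of 6 skeletal muscle markers among tumors, 1061, against 39.7 at the lowest, though normal lung ran from 66.3 to 1161. The Cox7a1 call (1.05, SE 0.43, adjusted p = 0.0478 in limma) was lost without tumor 2 (0.81, adjusted p = 0.0719), without tumor 7 (0.97, adjusted p = 0.0725) and in 12 more alternatives. The part of muscle or of other cells in these levels was not tested. Cox7b2, a testis form, stayed at or under the floor of 3 reads in normal lung and reached 6.94 at most.

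**Figure D2:**
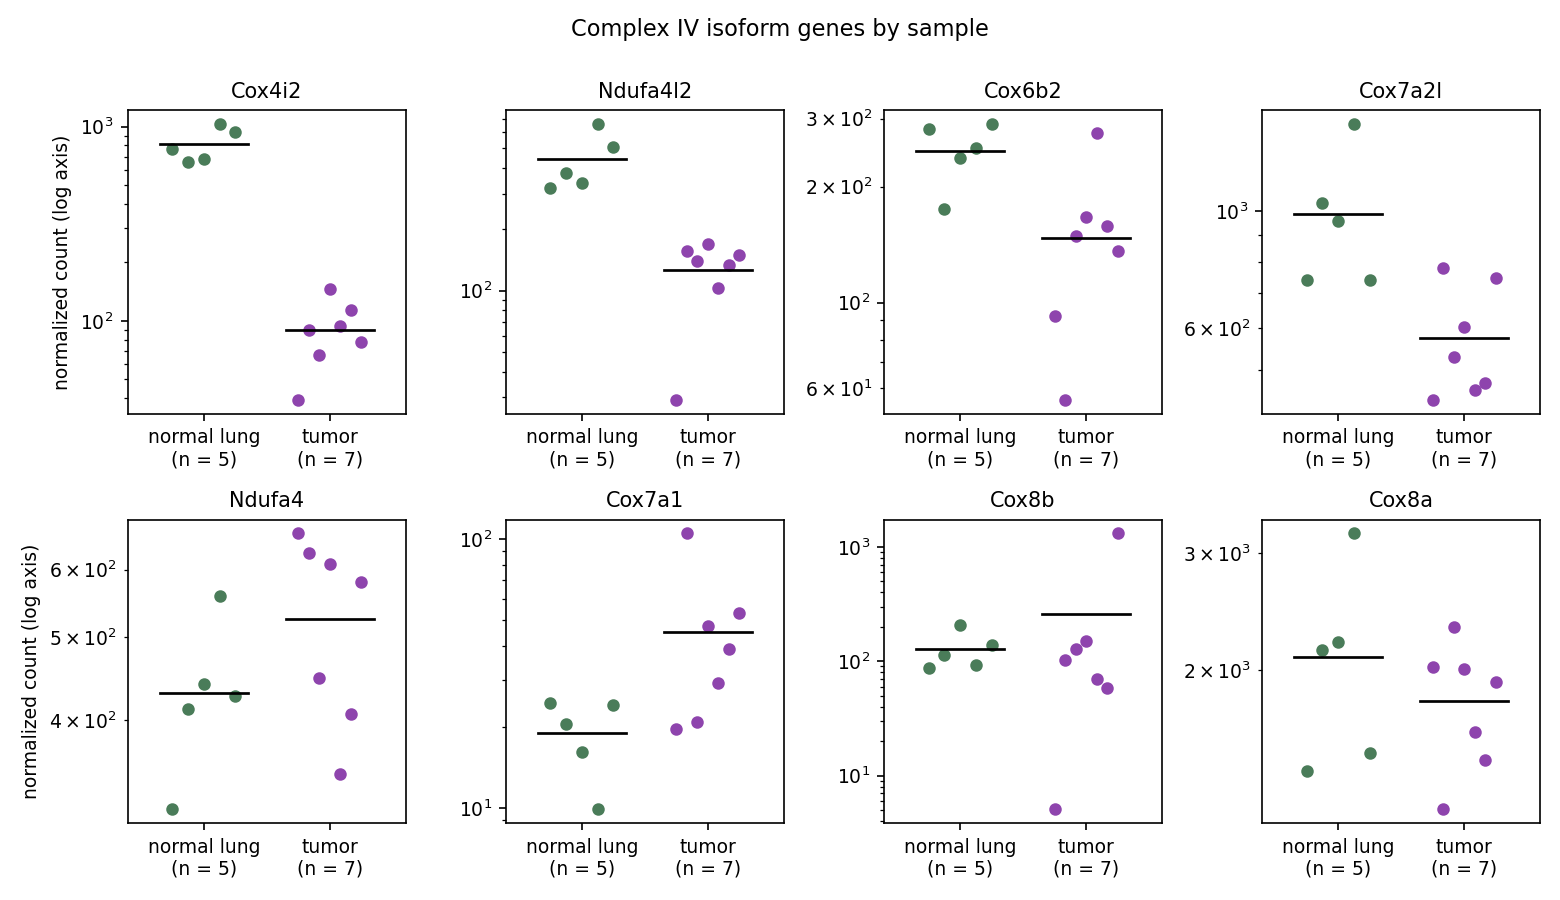
Normalized counts (log axis, its range set per gene) of 8 complex IV genes in 5 normal lungs (green) and 7 tumors (purple), each point a library in order of its number and each bar the group mean. All tumors sit below all normal lungs for Cox4i2 and Ndufa4l2. Tumor 7 is the high point of Cox8b at 1314, and tumor 1 the low point at 5.06.

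Ratios between paired forms within a library depend little on how libraries were scaled, unless a form is near the floor. There the 1 added to each value before taking logs matters, as for Cox7b2. For 8 pairs with both genes in the table, the log2 ratio of the tissue-restricted, alternative or less abundant form to the general one was tested. The test was by exact permutation (two-sided, 792 splits), which cannot give a p under 0.00126. For 2 pairs the groups were fully apart at that smallest exact permutation p (adjusted over the 8 pairs, 0.00505). The log2 ratio of Cox7a2l to Cox7a2 was 2.47 ± 0.31 (SD, n = 5 normal lungs) against 1.07 ± 0.28 (SD, n = 7 tumors), lower by a log2 difference of -1.40. The log2 ratio of Ndufa4l2 to Ndufa4 was 0.00 ± 0.27 in normal lung and -2.18 ± 1.02 in tumors. It lay between -1.99 and -1.59 in tumors 2 to 7 and at -4.46 in tumor 1. Per kilobase of exon, Ndufa4l2 was at 403 ± 130.3 and Ndufa4 at 312 ± 63.0 in normal lung, and at 115 ± 43.4 and 380.5 ± 89.2 in tumors. In every tumor the general form, Ndufa4, had the higher normalized count of the pair.

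The other 6 pairs did not pass the adjusted threshold in the exact permutation test. By that exact test Cox6b2 to Cox6b1 differed by -0.87 (p = 0.0391, adjusted p = 0.0783), and Atp5g1 to Atp5g3, a pair of c ring genes described below, by 0.62 (p = 0.024, adjusted p = 0.064). The remaining differences were 0.41 for Cox7a1 to Cox7a2, -0.19 for Cox8b to Cox8a, 0.09 for Cox7b2 to Cox7b and 0.13 for Atp5g2 to Atp5g3, with adjusted p from 0.495 to 0.879. The sign of the last 3 differences turned when single libraries were left out.

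ATP synthase had the largest share of higher calls among the complexes. Of 18 rows 10 were called higher in tumor (55.6%, beside 31.4% of all genes), none lower and 8 not called, with a median of 0.53. Counting Atp5o once, it was 9 of 17 genes, with a median of 0.48. The 5 tested genes of the F1 head, where ATP is made, were mostly not called. Atp5b, the catalytic beta subunit, was the exception, with 3535, 4553, 5104, 5884 and 4058 across normal lungs 1 to 5 and 5252 to 9361 in tumors with a median of 6682. Tumor 6 alone lay inside the normal range, and the fold change was 0.62 (SE 0.16, adjusted p = 0.00472 in limma). With the Y-linked covariate it was 0.50 and not called (adjusted p = 0.0729). Atp5a1, the alpha subunit that alternates with beta in the head, overlapped at 4014 ± 636 in normal lung and 4429.6 ± 988 in tumors and was not called (0.13, SE 0.17, adjusted p = 0.545 in limma). Atp5c1 (0.28), Atp5d (-0.04) and Atp5e (-0.30), the genes of the central stalk, were not called.

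The c ring is the rotor that protons turn, and its subunit is made from 3 genes, Atp5g1, Atp5g2 and Atp5g3, whose mature proteins are the same and whose targeting sequences differ. All 3 were higher in tumor, where 31.4% of all genes were called higher. Atp5g1 had 119, 127, 103, 139.7 and 131 normalized counts across normal lungs 1 to 5 and 270.3, 425, 248, 255, 324, 276 and 234 across tumors 1 to 7. The groups did not overlap, and its level was 2.30-fold higher in tumor (log2 1.20, SE 0.19, adjusted p = 1.02e-04 in limma). Atp5g2 had 222, 199, 250.3, 186 and 199 in normal lung and 307 to 398 in tumors with a median of 349. It too was fully apart, with a fold change of 0.71 (SE 0.15, adjusted p = 9.24e-04 in limma). Atp5g3 had 806, 1088, 1231, 1608 and 962 in normal lung and 1219 to 2185 in tumors with a median of 1583. Its groups overlapped, and the call (0.59, SE 0.20, adjusted p = 0.019 in limma) was lost without normal lung 1 (adjusted p = 0.0591) and with the Y-linked covariate (adjusted p = 0.128). Per kilobase of exon Atp5g3 was the highest of the 3 in both groups, at 522 ± 140.1 in normal lung and 778 ± 167 in tumors, followed by Atp5g2 at 126 ± 15.1 and 207 ± 18.2 and Atp5g1 at 25.2 ± 2.80 and 59.1 ± 13.4. On this scale the ranges of the 3 genes did not overlap within either group. The length used was that of all annotated exons together, 4912 bases for Atp5g1, 1675 for Atp5g2 and 2181 for Atp5g3. Without division by length, Atp5g1 (234 to 425) and Atp5g2 (307 to 398) overlapped in tumors, so their separation there depends on the lengths used.

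The small subunits of the membrane part hold synthase dimers together and were higher in 4 of 4 cases, where 31.4% of all genes were called higher. Atp5l, subunit g, had 168, 97.8, 126, 88.9 and 178 across normal lungs 1 to 5 and 253 to 486 in tumors with a median of 306. Every tumor was above every normal lung, and the fold change was 1.41 (SE 0.24, adjusted p = 1.94e-04 in limma). Atp5l overlaps Gm30934 on the opposite strand. Atp5k, subunit e, had 27.6 to 57.8 in normal lung and 52.6 to 93.4 in tumors (0.86, SE 0.27, adjusted p = 0.0146 in limma), with no call under the Y-linked covariate (adjusted p = 0.0862). Atp5j2, subunit f, had a fold change of 0.67 with groups apart, and Atp5mpl one of 0.48.

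The peripheral stalk holds the head against the turning rotor. Of its 5 rows 2 were higher (40%, beside 31.4% of all genes). Both are Atp5o, the subunit that confers oligomycin sensitivity, which the table lists under 2 identifiers. ENSMUSG00000022956 had 11.6 to 24.0 in normal lung and 27.4 to 40.5 in tumors (0.85, SE 0.28, adjusted p = 0.0174 in limma). ENSMUSG00000116933, singled out after its values were seen, had 0 to 2 reads per normal lung and 17 to 50 per tumor. Its mean normalized count over the tumors, 25.5, was at least 5.26-fold higher than the floor of 3 reads in a normal lung library. The exons of the second overlap those of the first and of Donson on the same strand, so the split of reads between them is uncertain. Atp5f1, Atp5h and Atp5j, the other stalk genes, were not called, with fold changes of 0.25, 0.27 and 0.16, and Atp5s was not called either (-0.33).

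**Figure D3:**
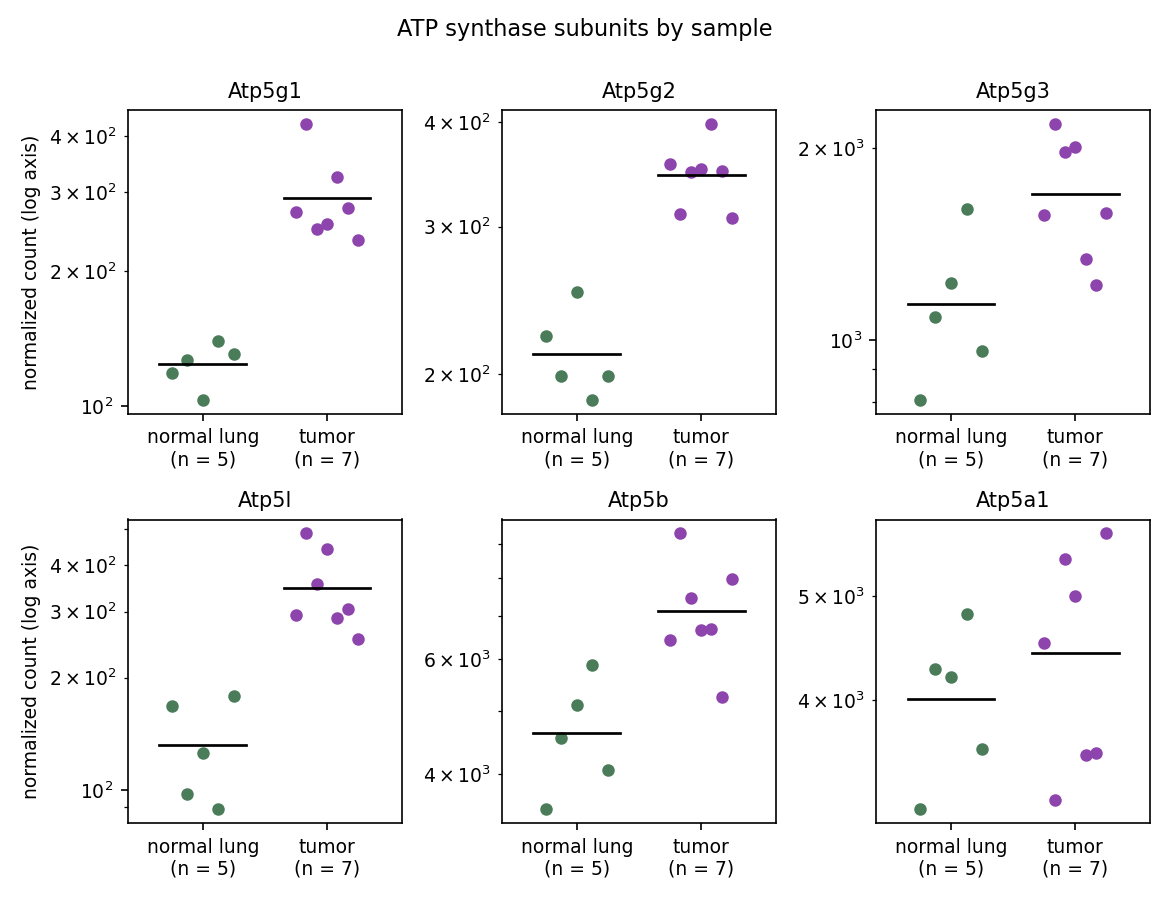
Normalized counts (log axis, its range set per gene) of 6 ATP synthase genes in 5 normal lungs (green) and 7 tumors (purple), each point a library and each bar the group mean. Tumors lie above all normal lungs for Atp5g1, Atp5g2 and Atp5l, overlap in 1 tumor for Atp5b and in 4 tumors for Atp5g3, and overlap broadly for Atp5a1.

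The mean log2 level over the members of each complex was also taken by library. It was 8.19 ± 0.15 in normal lung and 8.84 ± 0.11 in tumors for complex V, where all tumors lay above all normal lungs. The tumor mean minus the normal mean was 0.20 for complex I, 0.22 for complex III, -0.04 for complex II and -0.22 for complex IV, with overlapping libraries. With equal totals it was 0.84 for complex V, 0.40 for complex I, 0.43 for complex III, 0.16 for complex II and -0.02 for complex IV, so the sign for complex II turned. Taken as the median over members, the difference was 0.23 for complex V, 0.11 for complex I, 0.35 for complex III, -0.23 for complex II and -0.04 for complex IV. With the first identifier of Atp5o alone, the mean of complex V differed by 0.46, and its tumors, at 8.91 to 9.28, still lay above its normal lungs, at 8.41 to 8.83.

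Libraries within a group also differed across many members at once. Among the normal lungs, lung 4 was the highest in 59 of 81 members (72.8%, beside 22.7% of all genes) and lung 1 the lowest in 47 (58.0%, beside 23.3%). Among the tumors, tumor 2 was the highest in 37 members (45.7%, beside 21.0% of all genes). Tumors 5 and 6 were each the lowest in 21 (25.9%, beside 7.90% and 4.86%).

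**Figure D4:**
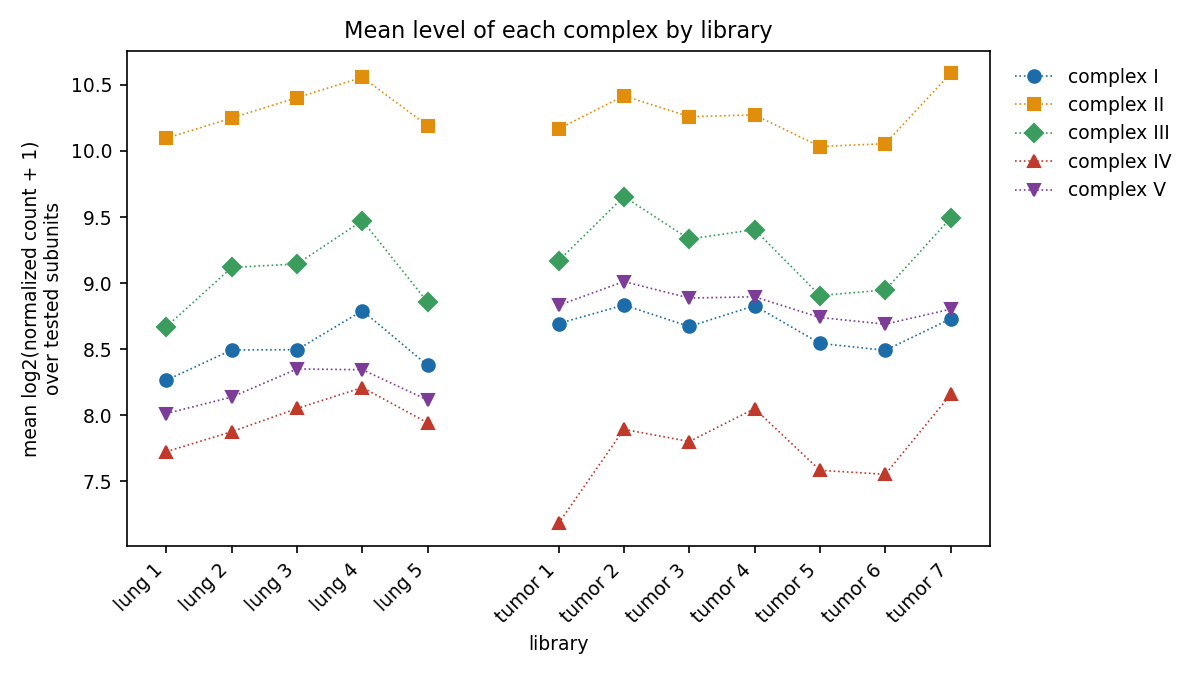
Mean log2(normalized count + 1) over the tested members of each complex (vertical axis) in each library (horizontal axis), with dotted lines joining libraries of a group only to guide the eye. Complex V lies between 8.01 and 8.35 in normal lung and between 8.69 and 9.01 in tumors. Lung 4 is the highest normal lung for complexes I to IV.

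Other genes of the pathway came from lists kept outside the name rule. For comparison with their counts, 31.4% of all genes tested were called higher and 30.1% lower. Cytochrome c (Cycs, 1.08), the cytochrome c1 subunit of complex III (Cyc1, 0.53) and the acyl carrier subunit of complex I (Ndufab1, 0.40) were higher in tumor, 3 of 3. Of 51 tested assembly factors 11 were higher, 11 lower and 29 not called, with a median of -0.13. The higher ones included Lrpprc (1.38), which stabilizes mitochondrial messenger RNA, Ttc19 (1.35), a complex III factor, and Cox19 (1.23), a complex IV factor. Among the lower ones were Coa4 (-3.16), Coa3 (-1.64) and Coa5 (-1.49), all factors of complex IV assembly. Coa4 had 161 to 399 normalized counts in normal lung and 12.6 to 77.5 in tumors, so the groups did not overlap.

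Of 16 regulators of mitochondrial biogenesis and mitochondrial DNA 6 were higher, 2 lower and 8 not called. Over all genes tested 31.4% were called higher and 30.1% lower, shares that stand beside all counts of this paragraph. Nrf1 itself had 1206 to 1439 in normal lung and 1664 to 2416 in tumors (0.64, SE 0.14, adjusted p = 0.00124 in limma). Gabpa, the ETS factor named with the second motif, was not called (-0.06, adjusted p = 0.764 in limma). Neither was Gabpb1 (0.15, adjusted p = 0.455 in limma). Whether any of these factors acts on the members was not tested. Tfam, which packages and transcribes mitochondrial DNA, had a fold change of 0.58 (adjusted p = 0.0101 in limma). Ppargc1a, a transcriptional coactivator, had one of 1.14 (adjusted p = 0.0209 in limma). Its groups overlapped, at 74.8 to 172 in normal lung and 136 to 601 in tumors. Tfb2m (-0.67) and Polg2 (-0.50), for transcription and replication of mitochondrial DNA, were lower. Neither was called with equal totals, which left 0 of the 16 lower and 8 higher (25.8% and 36.4% of all genes). In the tricarboxylic acid cycle, with pyruvate dehydrogenase, 5 of 16 were higher and 3 lower, the latter including Suclg2 (-1.16), a succinyl-CoA ligase subunit. Of 72 tested genes of mitochondrial ribosomal proteins 14 were higher, 6 lower and 52 not called, with a median of 0.23.

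The subunits encoded in mitochondrial DNA differed in direction from most nuclear ones. Of 13 listed, 10 were tested, 6 were lower in tumor (beside 30.1% of all genes) and none was higher, with a median of -1.08. The 6 were mt-Nd1 (-0.96), mt-Nd2 (-2.05), mt-Nd4 (-1.51), mt-Nd5 (-1.57) and mt-Nd6 (-1.48) of complex I and mt-Cytb (-1.21) of complex III. mt-Nd2 had 45245 to 72031 normalized counts in normal lung, 6627 to 15347 in tumors 1 to 6 and 37591 in tumor 7 (adjusted p = 1.33e-04 in limma). The summed level of the 13 was 437738 to 640679 in normal lung, 140155 to 349281 in tumors 1 to 6 and 503954 in tumor 7. mt-Co1, mt-Co2, mt-Co3 and mt-Atp6 were not called, with fold changes from -0.60 to -0.86. Levels were uneven, with mt-Co1 at 120753 to 173318 and mt-Co2 at 49.0 to 93.1 in normal lung, and mt-Nd3, mt-Nd4l and mt-Atp8 had too few reads to be tested. How reads of mitochondrial transcripts were aligned and assigned is not given in the sources used here.

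**Figure D5:**
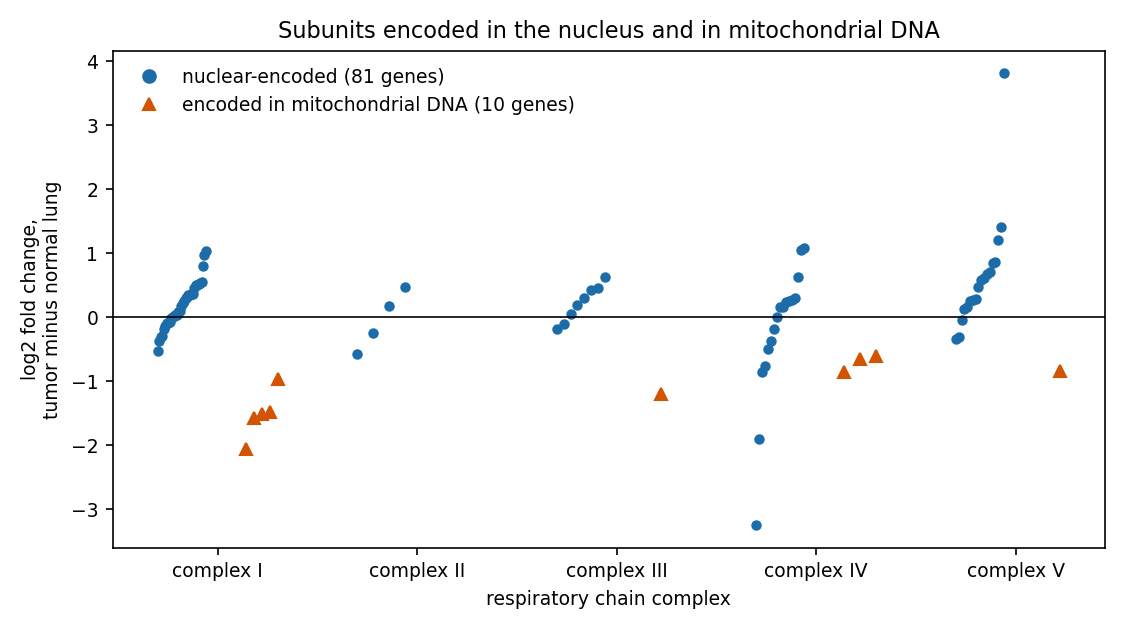
Log2 fold change (tumor minus normal lung, vertical axis) of 81 nuclear-encoded genes (circles) and 10 genes encoded in mitochondrial DNA (triangles), by complex. All 10 triangles lie below 0, of which 6 were called lower, while the nuclear genes lie on both sides of 0. Complex II has no gene in mitochondrial DNA.

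The 9 rows not annotated as protein-coding included copies that may share reads with their parents. Of 8 tested 1 was called, Ndufb1-ps, annotated as a long noncoding RNA, with 207 to 282 normalized counts in normal lung and 285 to 381 in tumors (0.41, adjusted p = 0.0319 in limma). Ndufa11b was assigned 675 ± 242 in normal lung (SD, n = 5) over 424 bases of exon, and its parent Ndufa11 112 ± 16.0 over 1092 bases. Uqcrh-ps2 was assigned 462 ± 164 over 269 bases and Uqcrh 420.3 ± 62.7 over 1237. The values of Ndufa11 and Uqcrh are uncertain to that extent. Of the 81 tested protein-coding members 25 have exons that overlap another listed gene, 7 of which were called. Over all 81 members 35.8% were called, and over all genes tested 61.5%.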

How the data were processed

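The table deposited by the authors lists 30399 Ensembl genes in 12 libraries, as a normalized count signal. Per the submitters' processing notes, featureCounts, DESeq2 and the build GRCm39 were used; the aligner, strand setting and annotation release are not given in the sources used here. The worth of 1 read in a column divides 100% of its values evenly (tolerance 0.02), so reads were recovered; for tumor 3 that step is too close to 1 to be checked independently, and count tests used the other 11 libraries. GENCODE M21 named 29982 genes.

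Tests were run with limma 3.58.1 (R 4.3.3; lmFit, eBayes with trend) on log2(value + 1) for genes whose mean reached 1, with Benjamini-Hochberg adjustment over all 23674; the design had foreseen raw counts or normalized values, and the latter applied. Intervals cover 95%. On recovered reads edgeR 4.0.16 called 6384 genes higher and 4821 lower, and DESeq2 1.42.0 7450 and 6023, beside 7128 and 6846 for limma on the same libraries. Isoform ratios, motifs and figures used Python 3.11.15, numpy 2.4.6, pandas 2.3.3, scipy 1.17.1 and matplotlib 3.10.9. Groups follow the tissue label, and replicate numbers are in order of listing and pair nothing.

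The members and lists were chosen with earlier results of these data known. Genes described with full values are those of the isoform pairs, the 3 largest called changes per direction and complex at a mean log2 value of at least 4, uncalled members where a complex has 5 or fewer, the 2 most variable members among tumors, and the catalytic subunits; other names are given by count with their fold change. On simulated counts for the comparison of 5 against 7 libraries (23674 genes, 200 changed), limma recovered 11.8% of changes of 0.5, 86.9% of changes of 1 and 100% of changes of 2 on the log2 scale, with 9 of 141 calls false. The simulation gave all genes the same dispersion and changed far fewer genes than were called here. Its recovery therefore does not measure that of these data.

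Alternatives were a pseudocount of 0.1, no filter, a filter at a mean of 10, quantile normalization, equal totals, both count tests, correlating or averaging tumors that share a number in their titles, dropping the trachea-titled tumors, a covariate of 4 Y-linked genes, and leaving out each library; limma on 11 libraries and complex V with 1 identifier for Atp5o were added after seeing the data.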

Additional observations from a re-analysis of the deposited data

Results flagged for a closer look

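In 4 of 88 comparisons of the highest or lowest library with the rest of its group, 1 tumor lay far from the others by Dixon's test, where chance gives about 4.4. Ndufs1 was at a log2 value of 9.31 in tumor 2, with the next tumor at 8.85. Sdha was at 11.31 in tumor 7, with the next tumor at 10.83. Ndufa4l2 was at 4.91 in tumor 1, with the next tumor at 6.71, and the log2 ratio of Ndufa4l2 to Ndufa4 was -4.46 in the same tumor, with the next at -1.99.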

How the results depend on the processing

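No paired analysis was possible because the labels give no replicate numbers that groups share. Over the named genes, 681 of the values under alternatives kept their direction and side of the threshold, 38 lost the call, 8 gained one and 14 changed sign. The calls of Ndufs1, Ndufv2, Ndufc1, Uqcrc1, Cox4i2, Ndufa4l2, Cox7a2l, Cox5a, Atp5g1, Atp5g2 and Atp5l held in all 24 alternatives run for each. With equal totals, 36 members were higher and 3 lower, complex I differed by 0.40, complex II by 0.16 and complex V by 0.84, 18 assembly factors were higher, 0 regulators lower, 8 tricarboxylic acid cycle genes higher, and 30 mitochondrial ribosomal genes higher and 2 lower. Of all genes, 36.4% were higher and 25.8% lower at that scaling. With the Y-linked covariate 10 members were higher. With all libraries as deposited, the complex V difference was 0.23 as a median over members and 0.46 with 1 identifier for Atp5o, whose second row has the largest rise. Leaving out 1 library at a time gave 15 to 23 members higher and 3 to 8 lower. The cause was not tested in any of these. Signs turned only in values that were not called. Cox8b was 1.27 with edgeR and between -1.005 and 0.29 with 1 library left out, the latter without tumor 1. Cox8a was 0.021 with equal totals. Cox6b1 was -0.0031 with averaged tumors, -0.12 with the Y-linked covariate and -0.057 to 0.12 with 1 library left out. Cox7b2 was -0.29 with a pseudocount of 0.1, -0.083 with averaged tumors and -0.29 with the covariate. The ratio of Cox7b2 to Cox7b was -0.46 with a pseudocount of 0.1 and -0.34 with averaged tumors. With 1 library left out that ratio ran from -0.22 to 0.42, Atp5g2 to Atp5g3 from -0.050 to 0.26, Cox8b to Cox8a from -0.80 to 0.51, Cox6b2 to Cox6b1 from -1.07 to -0.65 and Atp5g1 to Atp5g3 from 0.52 to 0.72, the latter pair of ratios passing the threshold in some. Cox6b2 to Cox6b1 was -1.11 and passed (exact permutation, adjusted p = 0.0423) with averaged tumors. A member that was not called may still differ by a small log2 change, and the simulation does not measure how small.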
